A study of Mus musculus with 2 samples.

Results

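The let-7 genes that do not lie next to a miR-99/100 or miR-125 gene were followed in mouse muscle cells. They are Mirlet7a-1, Mirlet7f-1 and Mirlet7d on chromosome 13, Mirlet7c-2 and Mirlet7b on chromosome 15, Mirlet7f-2 and Mir98 on the X chromosome, Mirlet7g on chromosome 9 and Mirlet7i on chromosome 10. Members were chosen by gene name and genomic neighbourhood, and they number 9 of the 2202 microRNA genes measured. All 9 were detected, that is, had at least 10 counts in each library, as did 314 genes in all. MicroRNA sequencing was carried out on total RNA of myocytes obtained by differentiating C2C12 cells for 72 h. C2C12 is a myoblast line of C3H mouse origin, grown out of crushed thigh muscle and obtained from ATCC, so both libraries come from 1 cell line. The labels give no transgene, knockout or drug, and the series holds 1 group of 2 libraries, numbered biological replicates 1 and 2. Undifferentiated cells were not analysed here, and no comparison between conditions was made. The labels give each replicate a biosample of its own without saying whether the cultures were differentiated apart, so the spread between the libraries may be technical in part.

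The let-7 family is one of the oldest microRNA families in animals. Its genes are transcribed as long precursors, cut to a hairpin of which mostly the 5p arm is kept, and the mature RNA pairs with target messages through its seed, bases 2 to 8. The family is low in stem cells, where the RNA-binding protein LIN28 holds back the precursors, and rises as cells differentiate. Among its best known targets are growth genes such as Hmga2, Myc, Ras genes and Lin28 itself.

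The mature 5p sequences are shown first because several of the 9 genes share them, which bears on how their counts can be read. All 9 hairpins matched the RefSeq microRNA table (build GRCm38.p6, the assembly of mm10). The 9 genes make 8 different 5p sequences of 22 bases, written 5′ to 3′ with the seed in capitals.

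let-7a-5p of Mirlet7a-1: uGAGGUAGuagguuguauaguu
let-7b-5p of Mirlet7b: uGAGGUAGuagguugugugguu
let-7c-5p of Mirlet7c-2: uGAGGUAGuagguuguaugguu
let-7d-5p of Mirlet7d: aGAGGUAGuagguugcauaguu
let-7f-5p of Mirlet7f-1 and Mirlet7f-2: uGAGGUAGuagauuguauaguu
let-7g-5p of Mirlet7g: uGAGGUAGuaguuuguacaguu
let-7i-5p of Mirlet7i: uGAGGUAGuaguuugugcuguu
miR-98-5p of Mir98: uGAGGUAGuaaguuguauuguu

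There was 1 seed in all of them, so the genes cannot be told apart by seed. They differed from let-7a-5p at 1 to 4 bases, counted from 1 at the 5′ end and written with the base of let-7a-5p first. Let-7c differs by A19G, let-7f by G12A, let-7b by A17G and A19G, let-7d by U1A and U16C, let-7g by G12U and U18C, miR-98 by G11A and A19U, and let-7i by G12U, A17G, U18C and A19U. The nearest sequence of another member lay 1 base away for let-7a, let-7b, let-7c and let-7f and 2 bases away for the others.

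Whole mature sequences were then searched in the hairpins of all 2202 measured genes, on both strands. The 5p sequence lay in 1 hairpin only for 5 genes (Mirlet7b, Mirlet7d, Mirlet7g, Mirlet7i and Mir98), and so did their 3p sequence. For the other 4 genes the 5p sequence lay in 2 hairpins: let-7a-5p in Mirlet7a-1 and Mirlet7a-2, let-7c-5p in Mirlet7c-1 and Mirlet7c-2, and let-7f-5p in Mirlet7f-1 and Mirlet7f-2. Sequence elsewhere in the genome was not searched. The deposited tables have the layout of STAR gene counts, in which a read that fits several places equally well is given to no gene, so under that counting a read of let-7a-5p that ends at the annotated bases would have no gene to go to. The counting program is not named in the sources used. The 3p arms of these 4 genes, with bases 2 to 8 in capitals, show which of them have another way to be counted.

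let-7a-1-3p of Mirlet7a-1: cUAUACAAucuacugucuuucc
let-7c-2-3p of Mirlet7c-2: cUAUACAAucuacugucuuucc
let-7f-1-3p of Mirlet7f-1: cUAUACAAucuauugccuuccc
let-7f-2-3p of Mirlet7f-2: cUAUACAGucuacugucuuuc

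The 3p arms of Mirlet7a-1 and Mirlet7c-2 are identical, so neither gene has an arm of its own among the measured hairpins. Mirlet7f-1 and Mirlet7f-2 each have a 3p arm that lies in 1 hairpin. A read of let-7a-5p points to 1 hairpin once it carries 1 genomic base before the 5′ end or 2 after the 3′ end. For let-7c-5p the numbers are the same, and for let-7f-5p 1 base at either end is enough. The counts do not separate the arms or the ends of reads, so which reads gave the counts of these 4 genes was not tested.

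Together the 9 genes held 5.52% of the counts assigned to microRNA genes in replicate 1 (418166 counts; exact binomial interval 5.50% to 5.53%) and 4.41% in replicate 2 (435455 counts; 4.40% to 4.43%), a mean of 4.96% ± 0.779 (SD, n = 2). These 95% intervals are each taken within 1 library, so they cover counting error only and not the spread between samples. The reads carry no molecular identifiers, so repeated copies of a molecule cannot be told apart. The 5 genes with a 5p sequence of their own took 99.0% of the family members' counts in replicate 1 and 99.5% in replicate 2. The 4 genes with a shared 5p sequence had 4171 and 2109 counts in all, or 0.0550% and 0.0214% of the assigned counts. If only uniquely mapped reads were counted, as the layout of the tables has it, these low values cannot be read as levels of let-7a, let-7c or let-7f in the cells.

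Levels are given as CPM, counts per 1000000 assigned counts of the library, which are not divided by length. Mirlet7b had 18538 CPM in replicate 1 and 27399 CPM in replicate 2 (140546 and 270298 counts). Mirlet7i had 27586 and 13491 CPM (209140 and 133090 counts). These genes led the family in both libraries and ranked 8th and 9th of all microRNA genes by mean level, with means of 22969 ± 6265 and 20538 ± 9967 CPM (SD, n = 2). Their order turned between the libraries: Mirlet7i stood above Mirlet7b in replicate 1 and below it in replicate 2, and their ranges overlapped.

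**Figure D1:**
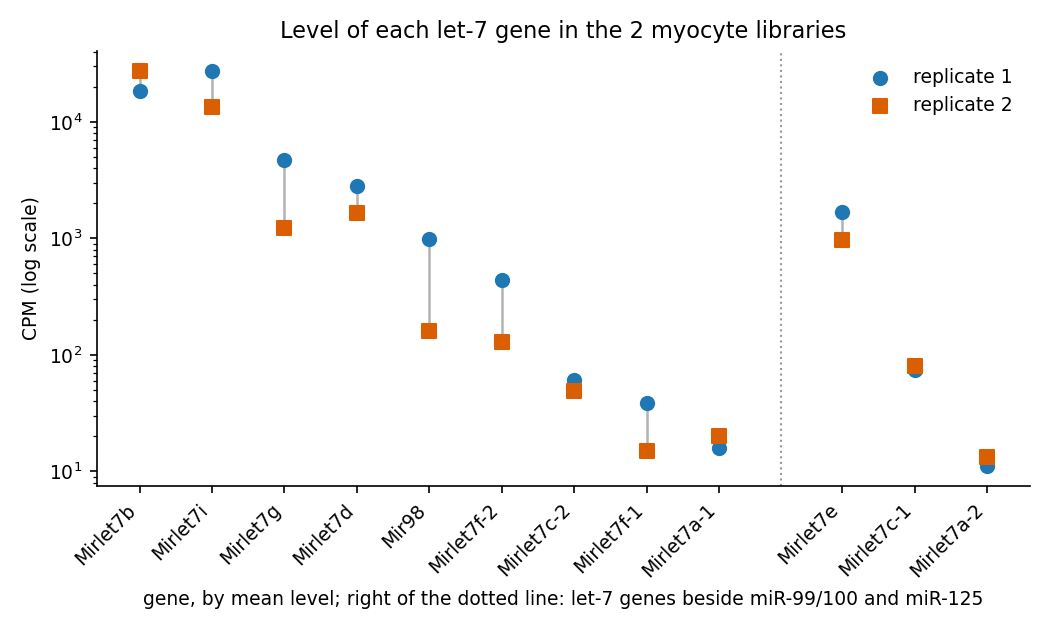
The plot shows the CPM of each let-7 gene on a log axis, with a circle for replicate 1 and a square for replicate 2, and the 3 let-7 genes beside miR-99/100 and miR-125 at the right. Mirlet7b and Mirlet7i lie highest, between 13491 and 27586 CPM, and Mirlet7a-1 lies lowest of the 9 by mean, at 16.0 and 20.2 CPM.

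Mirlet7g had 4669 CPM in replicate 1 and 1221 CPM in replicate 2, a mean of 2945 ± 2438. Mirlet7d, the only member whose mature 5p sequence starts with A, had 2825 and 1656 CPM, a mean of 2240.2 ± 827. The order of this pair also turned between the libraries, with Mirlet7g higher in replicate 1 and Mirlet7d higher in replicate 2. Both stood below Mirlet7i, by at least 5.91-fold for Mirlet7g, and their ranges did not reach its range.

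Mir98, which carries the let-7 seed under a different name, had 989 and 160.1 CPM, a mean of 575 ± 586. Mirlet7f-2, its neighbour on the X chromosome, had 436 and 129 CPM (3302 and 1277 counts), a mean of 282 ± 216. Mir98 was the higher of the 2 in each library, but their ranges overlapped, and the SD of Mir98 exceeded its mean. Mirlet7f-2 had the most counts of the genes with a shared 5p sequence.

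The other 3 genes had under 100 CPM in each library. Mirlet7c-2 had 458 and 486 counts (60.4 and 49.3 CPM), Mirlet7f-1 had 290 and 147 (38.3 and 14.9 CPM), and Mirlet7a-1 had 121 and 199 (16.0 and 20.2 CPM). Mirlet7c-2 stood above the other 2 in both libraries, while Mirlet7f-1 and Mirlet7a-1 changed places between the libraries.

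Seen as shares of the members' own counts, Mirlet7i made up 50.0% in replicate 1 and 30.6% in replicate 2, and Mirlet7b 33.6% and 62.1%. Mirlet7g fell from 8.46% in replicate 1 to 2.77% in replicate 2, Mirlet7d stood at 5.12% and 3.75%, and Mir98 at 1.79% and 0.363%. The summed share of Mirlet7b and Mirlet7i rose from 83.6% to 92.6%. The summed level of the 9 genes thus differed by 1.25-fold between the libraries, less than 8 of the 9 single genes did.

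**Figure D2:**
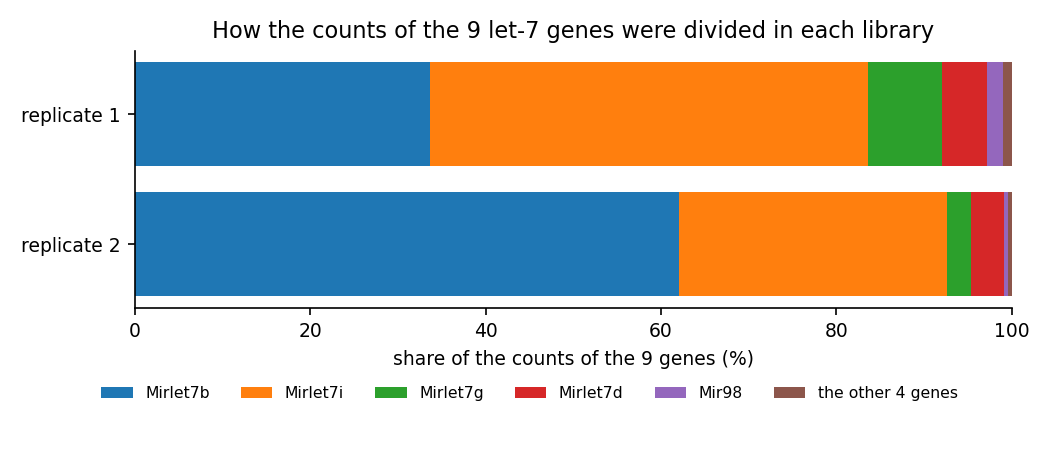
Each bar divides the counts of the 9 let-7 genes in a library by gene, in percent, with the 4 genes of shared 5p sequence drawn as a single piece. Mirlet7b takes 33.6% in replicate 1 and 62.1% in replicate 2, and Mirlet7i 50.0% and 30.6%.

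The same division by sequence was seen in the 3 let-7 genes that lie beside miR-99/100 and miR-125 genes. Mirlet7e, whose 5p sequence lies in 1 hairpin, had 1679 and 969 CPM, whereas Mirlet7c-1 had 73.5 and 80.9 CPM and Mirlet7a-2 had 11.1 and 13.2 CPM. Of these 3, Mirlet7e was higher in replicate 1 (1.73-fold), and Mirlet7c-1 and Mirlet7a-2 did not pass the test described next (adjusted p = 0.120 and 0.308, exact binomial test with Benjamini-Hochberg adjustment). Together they held 0.176% and 0.106% of the assigned counts. Of the neighbours of those genes, Mir99a had 29486 and 27699 CPM, Mir100 8135 and 8073, Mir99b 11805 and 10529.8, Mir125a 1137 and 1477, Mir125b-1 1139 and 937, and Mir125b-2 315 and 288. The miR-125b genes are known to share their mature 5p sequence, as the let-7a genes do, but had more CPM than Mirlet7c-1 or Mirlet7a-2. Their arms were not searched in the hairpins. Beyond the family, the seed of let-7 occurs in the RefSeq mature sequences of Mir7k, which had 4 and 9 counts, and Mir1961, which had 0 counts in both libraries and so at most 0.396 and 0.304 CPM (the 3 counts that a count of 0 allows).

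To see which differences between the libraries exceeded counting error, the split of each detected gene's counts was set against the split of the library totals (exact binomial test, two-sided, Benjamini-Hochberg over all 314 genes). The test compares these 2 libraries and not conditions. Of the 9 let-7 genes 8 had an adjusted p below 0.05, against 66.6% of all detected genes. Of these, 7 were higher in replicate 1, against 38.2% of detected genes, and 1 was higher in replicate 2, against 28.3%. More than 2-fold higher in replicate 1 were 5 of the 9, against 15.9% of detected genes. That count was 4 of 9 with DESeq2 size factors or with totals taken without Mir206. It was 3 of 9 with the trend on hairpin G+C taken out and 3 of the 8 with a value in either-strand counts. The share of all detected genes was not computed under those settings. The median log2 ratio (replicate 1 over replicate 2) was 1.03 over the 9 genes and 0.09 over all detected genes, and the median of its absolute value was 1.03 and 0.51. Deep counts make small differences pass: among the 133 genes averaging 100 CPM or more, 6 of the 9 included, 93.2% passed and 21.1% differed by more than 2-fold. All 9 were among the 187 genes with at least 100 counts in each library. Of those 187 genes, 104 passed as higher in replicate 1 and 62 as higher in replicate 2, and of the 9 members 7 and 2. The median log2 ratio of the 187 genes was 0.28.

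Mir98 differed most, being 6.18-fold higher in replicate 1 (log2 ratio 2.63), and 7 of the 314 genes had a larger ratio in that direction. Mirlet7g was 3.82-fold higher in replicate 1 (log2 ratio 1.93), Mirlet7f-2 3.36-fold (1.75) and Mirlet7i 2.04-fold (1.03). The ratio of Mirlet7i lies at the 2-fold mark, and it was 0.97 with DESeq2 size factors and 0.86 with totals taken without Mir206. For these genes, Mirlet7d and Mirlet7b the p-value was too small for the software to represent. Mirlet7f-1 was 2.57-fold higher in replicate 1 with an adjusted p of 1.65e-21 (exact binomial test), Mirlet7d 1.71-fold, and Mirlet7c-2 1.23-fold with an adjusted p of 0.00307 (exact binomial test).

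Mirlet7b went the other way, 1.48-fold higher in replicate 2 (log2 ratio −0.56). Mirlet7a-1 was 1.26-fold higher in replicate 2 and did not pass (log2 ratio −0.34, adjusted p = 0.0625, exact binomial test). It passed under 5 of 6 other settings, with adjusted p from 0.00324 to 0.0985. Mirlet7c-2 fell below the threshold with library totals taken without Mir206 (log2 ratio 0.12, adjusted p = 0.281, exact binomial test), and its sum with Mirlet7c-1 did not pass (0.04, adjusted p = 0.577, same test). Mir206, the muscle microRNA with the most counts, took 34.1% of assigned counts in replicate 1 and 41.7% in replicate 2, and leaving it out of the totals lowered every ratio by 0.18 on the log2 scale. No member changed the sign of its ratio under any of the settings tried.

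**Figure D3:**
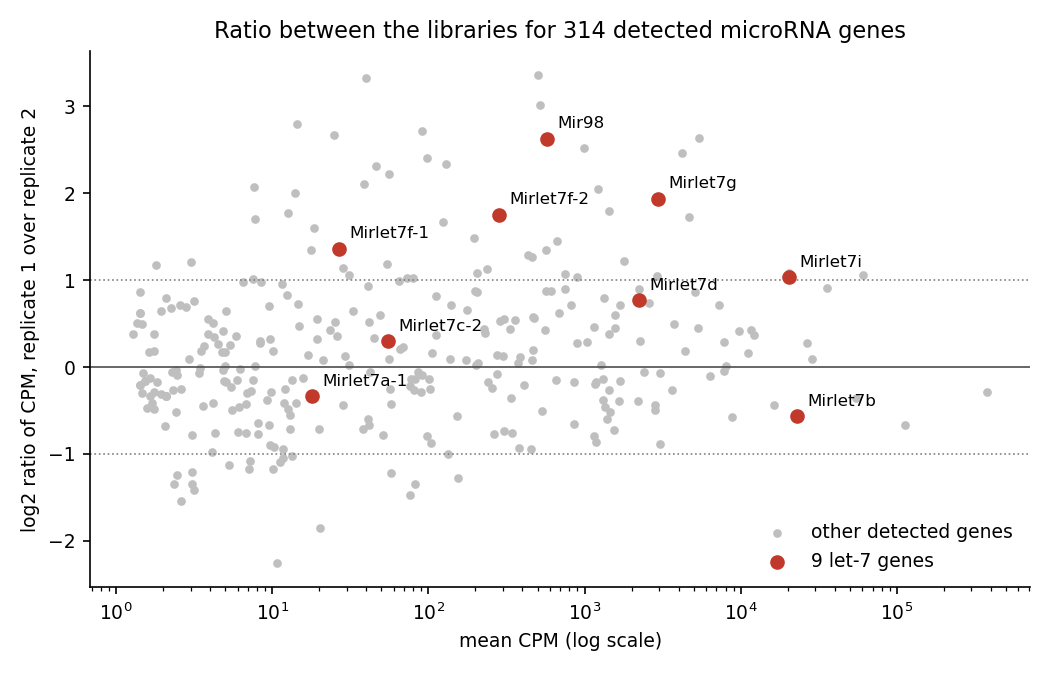
The mean CPM (log axis) of the 314 detected genes is plotted against the log2 ratio of replicate 1 over replicate 2, with the 9 let-7 genes in red and dotted lines at 2-fold. Mir98 (2.63), Mirlet7g (1.93), Mirlet7f-2 (1.75), Mirlet7f-1 (1.36) and Mirlet7i (1.03) lie above the upper line, and Mirlet7b (−0.56) and Mirlet7a-1 (−0.34) lie below 0.

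**Figure D4:**
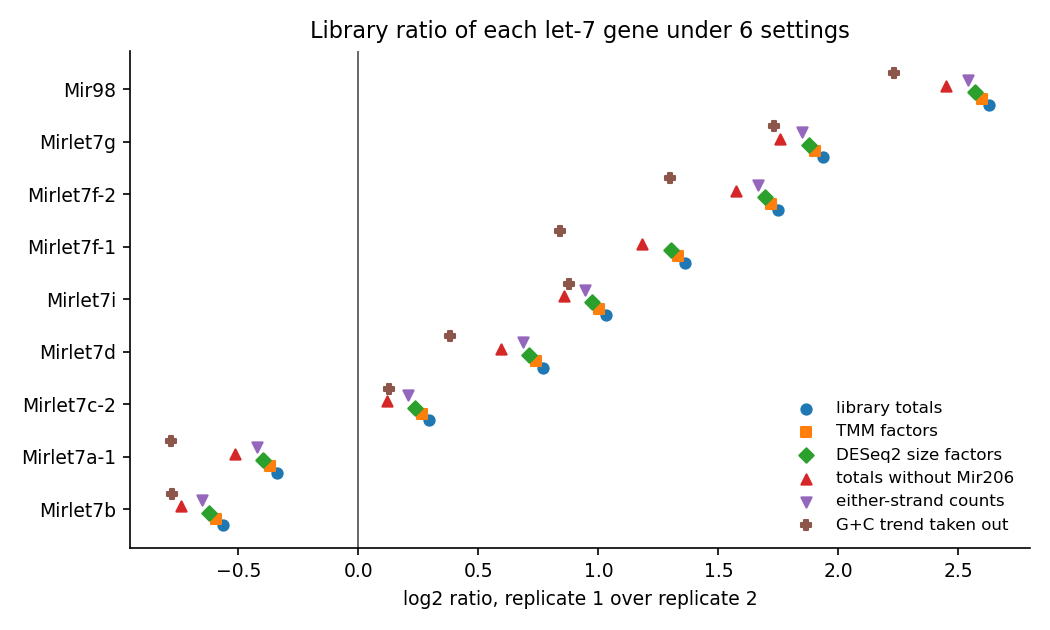
Each row is a let-7 gene and each symbol its log2 ratio of replicate 1 over replicate 2 under 1 of 6 settings. The ratio of Mir98 runs from 2.23 with the G+C trend taken out to 2.63 with library totals, and every gene keeps its sign; Mirlet7f-1 has no either-strand value.

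Genes that lie together in a host gene allow a second view, because a ratio of counts within a library does not depend on how libraries are scaled. On chromosome 13 (mm10), Mirlet7a-1 (ENSMUSG00000065421.3, chr13:48538179-48538272), Mirlet7f-1 (ENSMUSG00000105621.1, chr13:48537829-48537917) and Mirlet7d (ENSMUSG00000065453.1, chr13:48536012-48536114) lie on the minus strand within 2261 bases, each inside an exon of 6720427I07Rik, annotated as a long intergenic noncoding RNA. Mirlet7d had 73.8 counts per Mirlet7f-1 count in replicate 1 (exact binomial interval 65.8 to 83.2) and 111 in replicate 2 (94.5 to 132). Per Mirlet7a-1 count it had 177 (148 to 213) and 82.1 (71.4 to 94.9). The ratio of Mirlet7f-1 to Mirlet7a-1 was 2.40 (1.93 to 2.99) in replicate 1 and 0.739 (0.593 to 0.919) in replicate 2, so the pair, 261 bases apart, changed order. Neither of these has a 5p sequence of its own, so the ratios cannot be read as those of the mature microRNAs.

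On the plus strand of chromosome 15, Mirlet7c-2 (ENSMUSG00000065608.1, chr15:85706603-85706697) and Mirlet7b (ENSMUSG00000065564.1, chr15:85707319-85707403) are 621 bases apart, each inside an exon of the noncoding gene Lncppara. Mirlet7c-2 overlaps 2 annotated transcripts of that gene, with 1 exon covering it only in part, and Mirlet7b overlaps 1. Mirlet7b had 307 counts per Mirlet7c-2 count in replicate 1 (280 to 337) and 556 in replicate 2 (509 to 609). With Mirlet7c-1, which makes the same mature sequence, added to Mirlet7c-2 the mean ratio was 174 in place of 432. Nearly all counts of this locus were those of Mirlet7b, whose 5p sequence lies in 1 hairpin, and the locus held 1.86% of assigned counts in replicate 1 and 2.74% in replicate 2.

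On the plus strand of the X chromosome, Mirlet7f-2 (ENSMUSG00000065602.1, chrX:151912346-151912428) and Mir98 (ENSMUSG00000065536.2, chrX:151913214-151913321) are 785 bases apart in an intron of Huwe1, the gene of a ubiquitin ligase. Both were higher in replicate 1, and the locus as a whole held 0.142% and 0.0290% of assigned counts, a 4.92-fold difference. Mir98 had 2.27 counts per Mirlet7f-2 count in replicate 1 (2.18 to 2.37) and 1.24 in replicate 2 (1.15 to 1.33). In none of the 5 pairs of genes within a locus did the counting intervals of the 2 libraries overlap. Each of these pairs holds a gene with a shared 5p sequence, 3 of them reuse the same 3 genes, and the intervals leave out the spread between samples.

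The 2 genes without a let-7 neighbour lie in other hosts. Mirlet7g (ENSMUSG00000065440.1, chr9:106178840-106178927, plus strand) is in an intron of Wdr82, which encodes a subunit of histone methyltransferase complexes. Mirlet7i (ENSMUSG00000065406.3, chr10:122985640-122985724, minus strand) lies in an exon of the transcribed pseudogene D630033A02Rik. It overlaps 2 annotated transcripts of that gene, and an exon of 1 of them covers it. Host transcripts were not measured in these libraries.

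Mirlet7f-1 is overlapped on the other strand by the predicted microRNA gene Gm24111. In the count column that ignores strand it had 0 counts in both libraries, since reads there fit both genes, and in the sense column it had 290 and 147. Gm24111 had 2 and 0 counts in the sense column. Counts opposite the other members were at most 2.

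Base composition moved with the library ratio. Among the 5 genes with a 5p sequence of their own, the order of the log2 ratios ran with the number of G and C bases among the 22. Mir98 with 7 had the highest ratio, Mirlet7g with 8 the next, Mirlet7i and Mirlet7d with 9 followed, and Mirlet7b with 10 had the lowest. In the sequences printed above, the 2 bases by which let-7b differs from let-7a are both changes to G. Mirlet7a-1 itself had a log2 ratio of −0.34, however, and Mirlet7c-2, which differs from let-7a by A19G alone, had 0.29. Whether these bases bear on the ratios was not tested. Of the 4 genes with a shared 5p sequence 3 lay outside this order: Mirlet7f-2 and Mirlet7f-1, with 7 such bases, had lower ratios than Mirlet7g, and Mirlet7a-1, with 8, had a ratio below 0. Over all 314 detected genes the log2 ratio fell with the G+C content of the hairpin (Pearson r = −0.27, Spearman rho = −0.28), a correlation across genes of the same 2 libraries. For G+C of the annotated 5p arm, r was −0.28 over 245 genes. Of genes at or below the median hairpin G+C of 51.5%, 59.5% were higher in replicate 1, and of genes above it 48.1%. The hairpins of the 9 let-7 genes ran from 39.3% to 54.1% G+C, and over them the hairpin relation was weaker (r = −0.23). With the linear trend on hairpin G+C taken out, the median log2 ratio of the 9 genes was 0.84 in place of 1.03, and 7 stayed above 0. Without that step 7 of the 9 were also above 0, against 53.8% of detected genes. The share of all genes above 0 after it was not computed. The part of base composition in these ratios was not tested further.

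**Figure D5:**
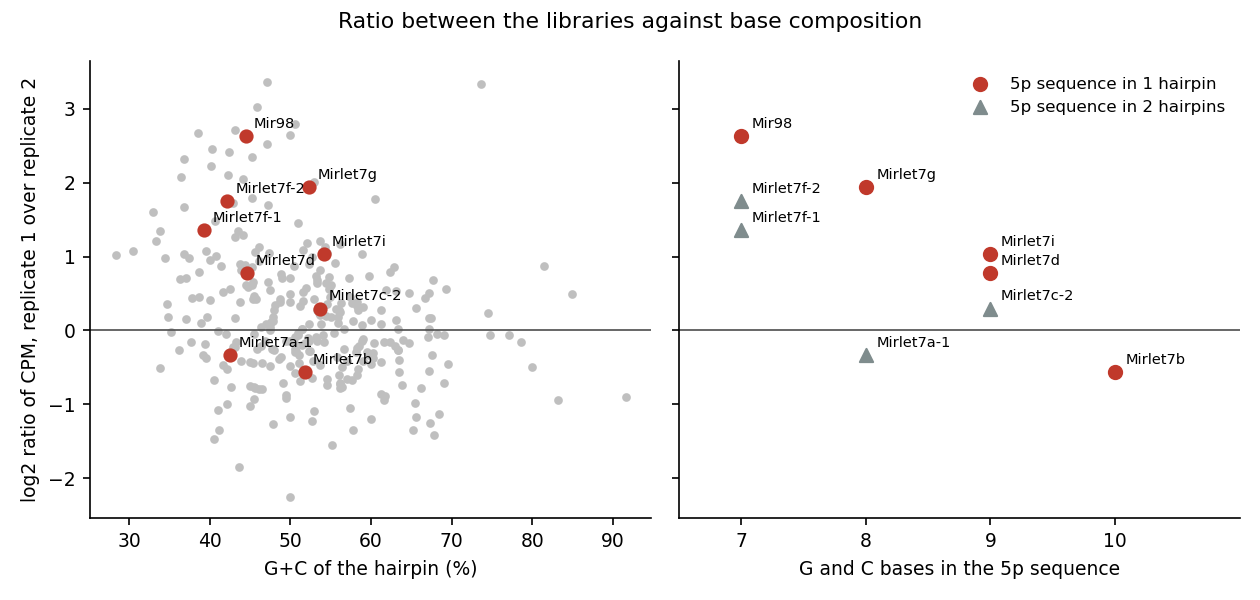
Log2 ratio of replicate 1 over replicate 2 against the G+C percentage of the hairpin for the 314 detected genes, let-7 genes in red (left), and against the number of G and C bases in the 5p sequence for the 9 genes (right). At the right, circles are genes whose 5p sequence lies in 1 hairpin, and they run from Mir98 at 7 bases and 2.63 to Mirlet7b at 10 bases and −0.56.

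The stretch between the arms of the hairpin is where LIN28 is known to bind many let-7 precursors, at a GGAG motif near the 3p arm. The GGAG letters were searched on the RNA strand only. The motif was found in 6 of the 9 genes (Mirlet7a-1, Mirlet7d, Mirlet7f-1, Mirlet7f-2, Mirlet7g and Mirlet7i), starting 7 or 8 bases before the 3p arm. Of 642 RefSeq hairpins with both arms annotated 8.10% hold it between the arms, and of the 38 with a stretch as long as those of let-7 (26 to 36 bases, the let-7 genes among them) 31.6% do. The 4 most abundant members are shown, with GGAG in capitals where it is present.

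Mirlet7b: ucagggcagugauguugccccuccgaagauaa
Mirlet7i: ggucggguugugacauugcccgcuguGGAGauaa
Mirlet7g: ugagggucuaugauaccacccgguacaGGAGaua
Mirlet7d: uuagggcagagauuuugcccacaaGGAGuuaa

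Mirlet7b lacks these 4 letters in this stretch, as does Mirlet7c-2. Mirlet7b without the motif and Mirlet7i with it had the 2 highest means and overlapped in level.

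For each of the 4 most abundant members the gene nearest in level outside the family was taken, by distance in log2(CPM + 1) over the 2 libraries. Only 2 libraries enter, so this is a likeness of level and of ratio alone. Mirlet7i lay closest to Mir322, with 27578 and 13017 CPM (distance 0.05), and Mirlet7d to Mir28a, with 2904 and 1553 CPM (0.10). Mirlet7g was nearest to Mir34c, with 7130.1 and 1298 CPM (0.62), and Mirlet7b to Mir99a (0.67).

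The libraries had 15349205 and 18450359 reads, of which 7581366 (49.4%) and 9865298 (53.5%) fell on a microRNA gene in the sense direction. Multi-mapped reads made up 22.0% and 17.9%. Among the skeletal muscle microRNAs, Mir133b had 13609.7 and 10568 CPM and Mir206 far more, whereas the copies of Mir1a and Mir133a, which share their mature sequences, had at most 32 counts. Mir499 had 564 and 378 CPM and Mir208b 260 and 495 CPM, so these differed in direction between the libraries. Of 13 measured pluripotent stem cell genes, such as the Mir290 and Mir302 clusters, 10 had no count in either library and the list had 2 and 4 counts. The 6 neuronal genes had 0 and 1 counts. The 4 blood genes summed to 101 and 183 CPM, mostly from Mir142 (89.0 and 178 CPM), and the endothelial gene Mir126a had 217 and 42.9 CPM. Mir126a was higher in replicate 1, like 7 of the 9 let-7 genes and 53.8% of detected genes. The blood genes were mixed: Mir142 was higher in replicate 2 and Mir451a in replicate 1 (11.9 and 3.65 CPM). Both libraries come from 1 cell line, so these levels are not read as other cell types in the culture. Whether these marker genes bear on the let-7 ratios was not tested.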

How the data were processed

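The authors deposited 1 table per library with the count of reads on every microRNA gene, in whole numbers and not normalized as far as the values show. Gene models were those of GENCODE M21 on build mm10, per the deposited notes. Which aligner and counter were run is not given in the sources used. The 3 columns (either strand, sense, antisense) and 4 further entries match STAR's gene count layout. The 4 entries hold 50.6% and 46.5% of reads and entered neither library totals nor tests. Sense counts were used, and CPM was computed over 7581366 and 9865298 assigned counts. With 1 group of 2 libraries no contrast could be fitted, so libraries were compared by an exact binomial test (scipy 1.17.1, Benjamini-Hochberg over all detected genes, threshold 0.05). The test was also run on simulated counts that held counting error only, so that run says nothing of the spread between samples.

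Members, lists and rules were chosen with earlier results of these data known. Genes named are the 9 members, the other let-7 genes with their cluster partners, other genes with the let-7 seed, the nearest gene in level of each of the 4 most abundant members, Mir206 and cell type markers. Gm24111, Mir322, Mir34c and Mir28a were named by overlap or by that rule. Alternatives were edgeR 4.0.16 TMM factors, DESeq2 1.42.0 size factors, totals without Mir206, all reads as denominator, either-strand counts, minimums of 1 and 100 counts, pseudocounts of 0.1 and 10 CPM, copies summed, and each replicate left out. Taking out the G+C trend, keeping only genes with a 5p sequence of their own and keeping only genes averaging 100 CPM or more were chosen after seeing the data. The stretch between the arms of 1 member is not reported here.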

Additional observations from a re-analysis of the deposited data

Results flagged for a closer look

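Reads in the multi-mapped entry, which enter no gene level, numbered 3378438 in replicate 1 and 3295854 in replicate 2. They are raised here because the 5p sequences of let-7a, let-7c and let-7f each lie in 2 measured hairpins. How many of these reads carry a let-7 sequence was not tested.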

How the results depend on the processing

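The number of genes that differed between the libraries (209) stayed within 1.5 times of that value under all 7 alternatives. The share of tested genes that differed, 66.6% of 314 in the main setting, depended on the minimum count. It was 40.9% of 555 genes with a minimum of 1 count and 88.8% of 187 with a minimum of 100. The share of the 9 genes, 4.96% of assigned counts, was 2.54% of all reads and 7.97% with totals taken without Mir206, by construction of the denominators, and 5.65% in either-strand counts. With copies elsewhere added, the mean count ratio of Mirlet7d to Mirlet7f-1 was 8.72 in place of 92.5, that of Mirlet7f-1 to Mirlet7a-1 10.9 in place of 1.57, and that of Mirlet7b to Mirlet7c-2 174 in place of 432. Adding reads of a second gene to 1 side of each ratio, or to both sides, makes these values by construction. The members more than 2-fold higher in replicate 1 numbered 5 of 9, against 15.9% of detected genes. They numbered 4 with DESeq2 size factors or with totals taken without Mir206. With the G+C trend taken out they numbered 3 of 9, in either-strand counts 3 of 8, and with copies summed 3 of 5. The share of all genes was not computed in these settings. No either-strand value exists for ratios with Mirlet7f-1. Among 67 alternative values of the members' library ratios 0 reversed, 1 fell below the threshold (Mirlet7c-2), 5 passed it newly and 1 moved by more than the replicate spread (the last 2 all Mirlet7a-1). Of 81 alternative levels 12 moved by more than the replicate SD, all with another denominator, strand column or a pseudocount of 10. With 2 libraries, leaving 1 out gives the other's value. No paired analysis was possible because the series holds 1 group. Genes near 10 counts have 1.32 and 1.01 CPM, which limits only low genes.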
